A study of Rattus norvegicus with 2 samples.

Results

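Cluster 4 was one of 2 clusters that the authors annotated as endothelial among cells of the neonatal rat heart, and its members were taken by that cluster number, matched to the count matrices by cell barcode. It held 723 of 11531 cells in the control library and 823 of 12689 cells in the LPS library, 1546 of 24220 cells in all. Both libraries came from hearts of Sprague-Dawley rats of 1 to 3 days of age, males and females pooled. The cells were enriched on a Percoll gradient for intrinsic cardiac adrenergic cells, non-myocyte cells that make catecholamines, and were treated for 2 h with saline (control) or with lipopolysaccharide (LPS, in the labels of the 055:B strain) at 1 µg/mL. No rat carried an introduced allele, and animals were pooled, so that each condition rests on 1 library.

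Lipopolysaccharide is a component of the outer membrane of Gram-negative bacteria. It is sensed by Toll-like receptor 4 with CD14 and MD-2, and the receptor signals through the adaptors MyD88 and TRIF to NF-κB, AP-1 and the interferon regulatory factors. Endothelial cells line the blood vessels. In the heart, those of the capillaries take up fatty acids for the muscle, hold a tight barrier and, once activated, display adhesion molecules and chemokines that recruit leukocytes. The question addressed by the treatment was how cardiac cells respond to LPS, and here it was asked of these endothelial cells alone.

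Levels are given in CPM, the unique molecular identifiers (UMIs, each a counted RNA molecule) of a gene summed over the cells of a cluster in a library and scaled to a total of 1000000 UMIs of those cells. Cluster 4 held 11125425 UMIs in the control library (median 12499 per cell) and 9734621 in the LPS library (median 9972 per cell). With 1 library per condition there was no test. Each ratio carries an exact 95% interval that covers counting error only, not the spread between animals or libraries. A gene was called higher or lower when its ratio reached 2-fold and it had at least 50 UMIs over both libraries. Apart from naming the gene with most UMIs in a marker list, levels of different genes are not compared, since 3′ counting catches transcripts unequally. The libraries shared 194 cell barcodes. Of these, 12 belonged to control cells of cluster 4 and 7 to LPS cells, and none marked a cell of cluster 4 in both.

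The 5 genes that marked the cluster as capillary-like were at their highest in it in both libraries, among the clusters compared. *Gpihbp1* (ENSRNOG00000007475) encodes the protein that carries lipoprotein lipase to the capillary lumen. It stood at 192 CPM in control and 115 in LPS cells of cluster 4, against 7.77 and 2.2 in cluster 5, the other endothelial cluster. *Apln*, the apelin ligand of growing vessel tips, reached 344 and 378 CPM, against 15.5 and 13.0 in cluster 5. *Fabp4*, a fatty acid binding protein of microvessels, reached 1894 and 1285 CPM, against 120 and 52.3. *Cldn5*, the main claudin of endothelial tight junctions, stood at 627 and 444, and *Tcf15*, a partner of Meox2 in fatty acid uptake by heart endothelium, at 158 and 142. These genes took part in making the clusters, so their difference from the other clusters is a description.

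**Figure D1:**
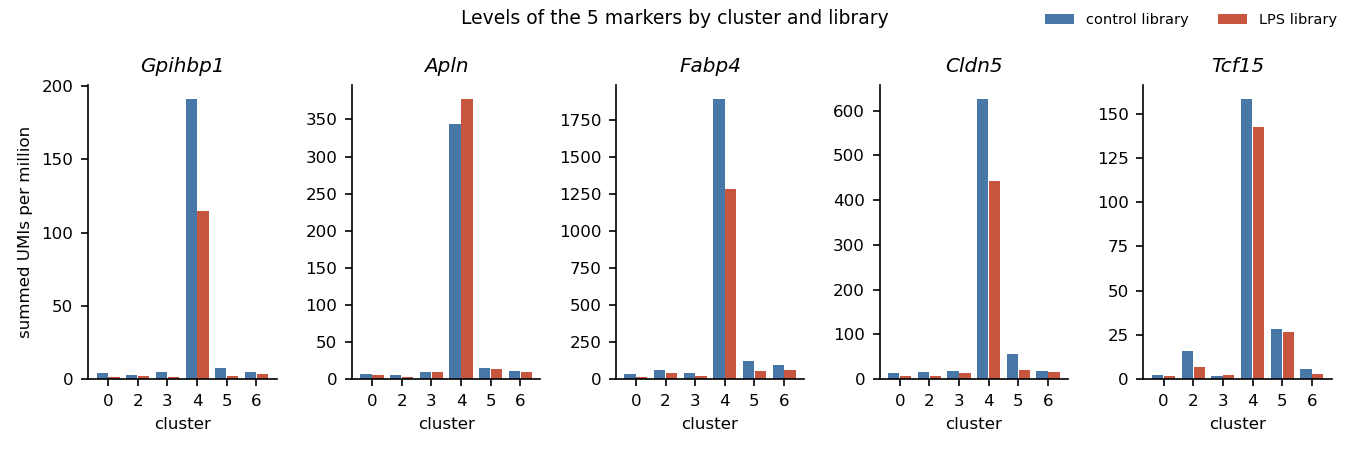
CPM of the 5 markers (vertical axes, linear from 0, one scale per gene) in cluster 4 and in clusters 0, 2, 3, 5 and 6, for the control library (blue) and the LPS library (red), 1 library per bar. Each marker is highest in cluster 4 in both libraries, and 4 of the 5 are lower in LPS than in control cells of cluster 4.

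When each cell was thinned to 3000 UMIs, *Fabp4* was found in 86.4% of control cells (Clopper-Pearson interval 83.7 to 88.9) and 77.3% of LPS cells (74.2 to 80.1). Without thinning, the shares were 94.3% and 87.4%. The share in fibroblasts of cluster 0, which should lack the gene, was 8.44% and 4.44% at the same thinned depth, and their median depth before thinning was 12968 and 9822 UMIs. *Cldn5* was found in 72.1% and 64.3% of thinned cells and *Apln* in 46.5% and 49.1%, against at most 4.0% of cluster 0 cells for either gene. *Gpihbp1* was found in 30.2% of control and 19.6% of LPS cells, and its intervals did not overlap. Thinning left out 27 LPS cells of cluster 4 and no control cell.

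Other endothelial genes were shared with cluster 5. *Cdh5*, the VE-cadherin of adherens junctions, stood at 461 and 455 CPM in cluster 4. The sum of 13 general endothelial genes was 3524 CPM in control and 3109 in LPS cells of cluster 4, against 3042 and 2291 in cluster 5, with *Ramp2* and *Eng* the most abundant in the 2 libraries and *Robo4* at 0 UMIs in the LPS cells. *Pecam1* was not in the gene list used for counting. The enzymes that define adrenergic cells were near or at 0: *Th* had 0 UMIs in both libraries of clusters 3, 4 and 5, and *Dbh* stood at 0.809 CPM (control) and 0.411 CPM (LPS), against 25.4 and 24.8 in cluster 3, which the authors annotated as adrenergic cells and cardiomyocytes.

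Markers of other cells were present at lower levels. The 8 fibroblast markers summed to 3267 CPM in control and 2359 in LPS cells of cluster 4, which was 28.1% and 22.1% of their level in cluster 0, with *Col1a1* the most abundant at 1405 and 914 CPM. The 9 mural markers reached 16.2% and 12.4% of their level in cluster 2, which the authors left unnamed, led by *Acta2*. The 7 cardiomyocyte markers reached 2.47% and 1.92% of cluster 3, led by *Tnnt2*, with *Myl2* at 0 UMIs. The 10 macrophage markers reached 0.585% and 0.433% of cluster 6, with *Cd163* at 0 UMIs in both libraries and *Csf1r* at 0 in the LPS cells. Their part in the results below was not tested, except where values without the richest cells are given.

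Against cluster 5, 340 of 8511 genes were at least 2-fold higher in cluster 4 in both libraries (3.99%) and 172 were at least 2-fold higher in cluster 5 (2.02%). The genes higher in cluster 4 included ligands and receptors of vessel growth. *Pgf*, placental growth factor, was 14.3-fold higher in control (12.1 to 16.9) and 21.6-fold in LPS cells (18.1 to 25.9). Of 11 tip cell and sprouting genes, 7 were higher in cluster 4 and none in cluster 5, among them the marker *Apln* and *Esm1*, *Angpt2*, *Cxcr4* and *Pdgfb*. All 11 had at least 50 UMIs over both libraries in cluster 4, but only 8 had them in cluster 5 too. The count thus depends in part on genes that could pass through cluster 4 alone. *Esm1*, a proteoglycan of tip cells, was 8.60-fold higher in control and 7.98-fold in LPS cells. *Cxcr4*, the receptor of Cxcl12, was 8.93-fold and 10.4-fold higher.

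The lipid and Notch genes followed the same direction. Of 16 genes of lipid uptake and handling, 9 were higher in cluster 4 and none in cluster 5, with a median log2 ratio of 1.47 in control and 2.03 in LPS cells, beside 0.20 and 0.16 over all 8511 genes. The 9 include the markers *Gpihbp1*, *Fabp4* and *Tcf15*, which label the cluster as capillary-like, so that the list's count and median restate that label in part. Only 12 genes of the list had at least 50 UMIs over both libraries in each cluster. The count and median thus also depend on genes sparse in cluster 5, which could pass through cluster 4. *Meox2*, the partner of Tcf15, was 11.8-fold higher in control (7.50 to 19.8), and *Pparg*, a nuclear receptor of fatty acid storage, was 9.93-fold higher (4.95 to 23.3). Of 8 Notch pathway genes, 6 were higher in cluster 4 and none in cluster 5. Only 4 genes of the list had at least 50 UMIs over both libraries in each cluster. The count thus depends in part on genes sparse in cluster 5, which could pass through cluster 4. The ligand *Dll4* was 12.3-fold higher in control (6.37 to 27.1) and 4.73-fold in LPS cells (3.11 to 7.53), and the Notch target *Nrarp* was 6.52-fold and 7.33-fold higher. Further genes among the 10 with the largest ratios were *Inhbb*, an activin subunit, at 12.3-fold and 14.1-fold, *Apod*, an apolipoprotein, at 10.8-fold and 43.1-fold, *Rgcc* at 10.4-fold and 18.8-fold, *Prss23* at 9.74-fold and 16.8-fold, and *Gpr4*, a proton-sensing receptor, at 10.2-fold and 9.09-fold.

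The genes higher in cluster 5 included *Selp* and *Lbp*. Of 10 leukocyte adhesion genes tested, 2 were higher in cluster 5 and 2 in cluster 4. *Selp*, the P-selectin of endothelial storage granules, stood at 3.87 CPM in control cells of cluster 4 and at 71.5 in cluster 5, an 18.5-fold difference (13.4 to 26.1). *Lbp*, the LPS binding protein, was 18.4-fold higher in cluster 5 in control (15.2 to 22.5) and 14.2-fold in LPS cells (12.0 to 17.0). *Plvap*, the diaphragm protein of fenestrated endothelium, was 7.42-fold and 8.69-fold higher, and 3 of 4 endocardial genes tested were higher in cluster 5. Of the 4, only 3 had at least 50 UMIs over both libraries in each cluster. The arterial gap junction gene *Gja4* stood at 126 CPM in control cells of cluster 4 and 523 in cluster 5, but at 107 and 81.1 in LPS cells, so that the order of the clusters turned over. The others of the 10 were *Plek*, *Tst*, *Slpi*, *Mdk*, *Bace2*, *Bik* and *Hmcn1*, at 6.74-fold to 17.4-fold higher in cluster 5 in control cells.

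**Figure D2:**
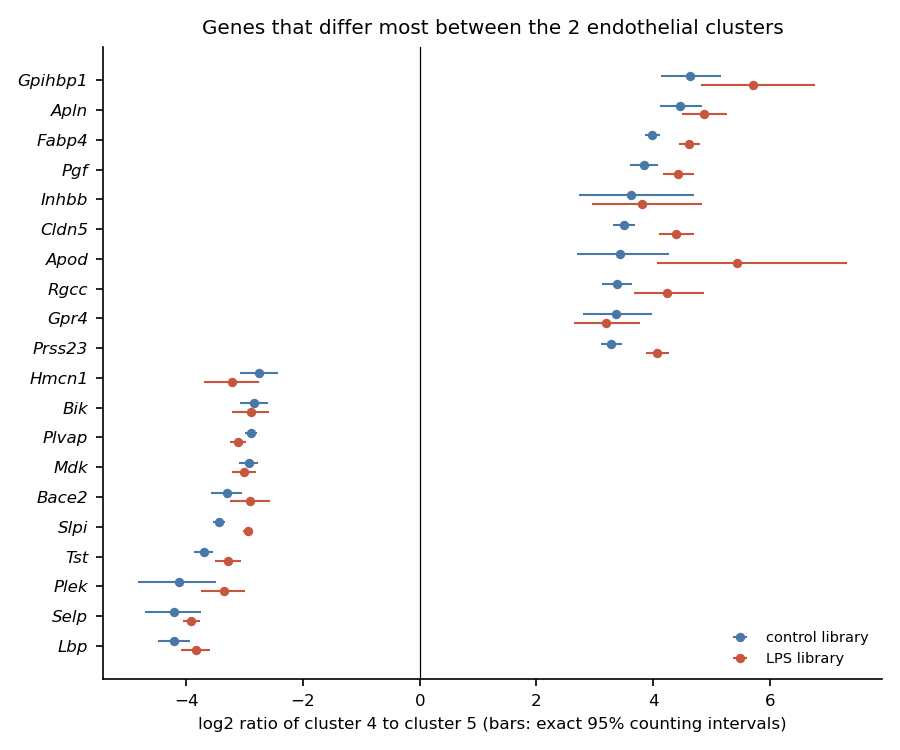
Log2 ratio of cluster 4 to cluster 5 (horizontal axis) for the 10 genes with the largest ratio in each direction, in the control (blue) and LPS (red) libraries, with exact 95% counting intervals. The 10 genes higher in cluster 4 lie between 3 and 6 log2 units in both libraries, and the 10 higher in cluster 5 below -2.

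Cells of cluster 4 differed among themselves in some of the tip cell genes. Control cells with an *Apln* UMI among 3000 (336 of 723) held 6.08-fold more *Esm1* than those without (4.48 to 8.40), and LPS cells with one (391 of 796) held 4.35-fold more (3.43 to 5.57). *Pgf* was 2.52-fold and 2.92-fold higher in the *Apln*-positive cells, *Angpt2* 2.25-fold and 2.21-fold, and the vasodilator peptide *Adm* 2.33-fold and 1.65-fold. *Pdgfb* was 1.75-fold higher in control (1.18 to 2.63) and 1.16-fold in LPS cells (0.779 to 1.72). *Dll4* was at 0.562 of the *Apln*-negative level in control (0.312 to 0.981) and 0.921 in LPS cells, and the intervals of *Cxcr4*, *Mcam*, *Plaur* and *Nid2* held 1 in both libraries. *Gpihbp1* went the other way, at 0.425 and 0.584 of the level in *Apln*-negative cells, while the ratio of *Fabp4* was 0.897 and 0.995. The *Apln*-positive cells were shallower before thinning, with a median of 10908 against 13885 UMIs in control and 9767 against 10903 in LPS cells. Cells with a UMI of the proliferation genes *Mki67* or *Top2a* made up 8.71% of thinned control and 8.42% of thinned LPS cells.

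Between LPS and control cells of cluster 4, 250 of 9492 genes were at least 2-fold higher (2.63%) and 382 at least 2-fold lower (4.02%). The median log2 ratio over all 9492 genes was -0.09. When the libraries were scaled by TMM instead, which moved that median to 0.01, 292 genes were higher and 278 lower, so that the higher share of these calls was 51.2% in place of 39.6%. Scaling by the median ratio gave 306 higher and 260 lower (54.1%). The genes higher after LPS included most of the chemokines, NF-κB feedback genes and interferon-response genes tested, and most of the 15 with the lowest ratios were more abundant in fibroblasts.

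**Figure D3:**
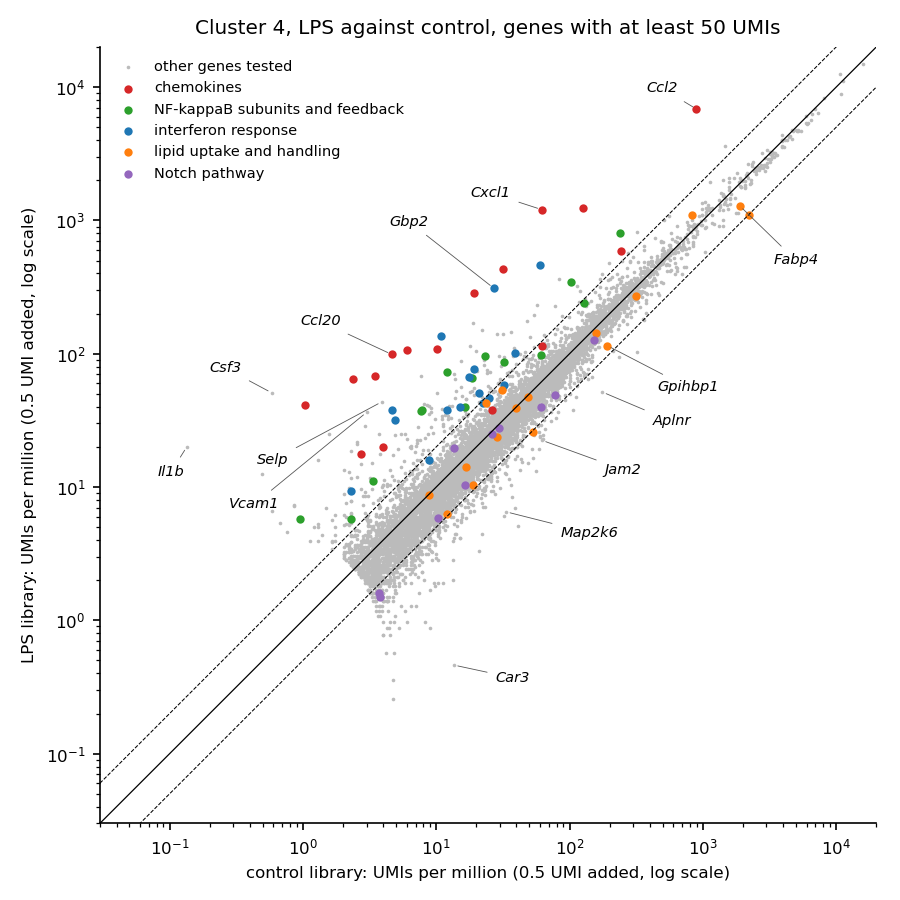
CPM in control (horizontal) and LPS (vertical) cells of cluster 4, both on log axes with 0.5 UMI added, for the 9492 genes with at least 50 UMIs. Solid line, equal levels. Dashed lines, 2-fold. Coloured points are 5 gene lists, and of these the chemokines (red) lie furthest above the upper dashed line.

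Chemokines, the secreted attractants of leukocytes, had the highest median log2 ratio of the lists, over the genes tested in cluster 4. Of 16 tested, 14 were at least 2-fold higher in LPS cells and none lower, with a median log2 ratio of 3.59. *Ccl2*, the main attractant of monocytes, went from 894 to 6854 CPM (7.66-fold, 7.50 to 7.83). *Cxcl1*, an attractant of neutrophils, went from 61.7 to 1207 CPM (19.6-fold, 18.1 to 21.2). *Ccl20*, the ligand of Ccr6, went from 51 to 963 UMIs (21.6-fold, 16.3 to 29.2).

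The transmembrane chemokine *Cx3cl1*, or fractalkine, was 17.7-fold higher (13.8 to 23.0) and *Cxcl10*, a ligand of Cxcr3, 10.7-fold (8.79 to 13.1). Out of 3000 UMIs, the median control cell of cluster 4 held 3 chemokine UMIs and the median LPS cell 31, and every thinned LPS cell held at least 1. The part of RNA released by other cells in these values was not tested. The 2 chemokines under 2-fold were *Cxcl9*, at 1.43-fold, and *Cxcl12*, a homing signal for stem cells, at 1.83-fold.

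The chemokine levels of cluster 4 were not uniformly above or below those of other cells. In the LPS library 8 of the 16 were lower in cluster 4 than in the fibroblasts of cluster 0 and 9 lower than in the macrophages of cluster 6. *Ccl4* stood at 40.9 CPM in cluster 4, 41.7 in cluster 0 and 11689 in cluster 6. *Ccl3* stood at 68.2, 68.7 and 21442 CPM in the same order. Whether transcripts released by other cells add to these 2 genes in cluster 4 was not tested. *Cxcl16*, at 590 CPM, *Cxcl12*, at 114, and *Cxcl9*, at 37.7, were higher in cluster 4 than in clusters 0, 5 and 6 of the LPS library.

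The NF-κB subunits and feedback genes were higher together. Of 14 tested, 12 were at least 2-fold higher and none lower, with a median log2 ratio of 1.74. *Nfkbia*, the inhibitor IκBα that NF-κB itself induces, went from 240 to 806 CPM (3.36-fold, 3.22 to 3.52). *Birc3*, an inhibitor of apoptosis and ubiquitin ligase in this pathway, went from 12.0 to 72.9 (6.06-fold, 5.03 to 7.34). The subunit gene *Nfkb2* was 4.18-fold higher, *Bcl3*, an atypical IκB, 4.85-fold, and the RNase gene *Zc3h12a* 4.84-fold. *Rela* and *Nfkbib* were 1.60-fold and 1.87-fold higher, below the 2-fold mark.

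The receptor side was sparsely counted. The control cells held 28 *Tlr4* UMIs and the LPS cells 14, too few to be tested, and *Cd14* stood at 8.0 and 6.16 CPM (0.770 of control, 0.546 to 1.08). Of 9 LPS-sensing genes tested, 3 were higher. *Irak2* was 2.27-fold higher, *Irak3*, the inhibitory kinase of the pathway, 2.92-fold, and *Tlr2*, the receptor for bacterial lipopeptides, 2.57-fold. *Myd88* was at 1.06-fold (0.895 to 1.26).

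The selectins and the inducible integrin ligands were higher. Of 12 tested, 5 were at least 2-fold higher and 1 lower. *Selp* went from 3.87 to 43.6 CPM, or 43 to 424 UMIs (11.3-fold, 8.22 to 15.8). *Sele*, the E-selectin of activated endothelium, went from 3.69 to 25.1 CPM (6.80-fold, 4.87 to 9.72), against 0.908 in cluster 0 of the LPS library. *Vcam1*, the ligand of leukocyte integrin α4β1, was 12.3-fold higher (8.57 to 18.1), and *Icam1*, the ligand of β2 integrins, 6.87-fold (5.99 to 7.90).

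*Madcam1*, a ligand of integrin α4β7, went from 5.75 to 25.2 CPM (4.38-fold, 3.31 to 5.86) and was higher in cluster 4 than in each cluster compared, at 1.10 CPM in cluster 5 and 0.637 in cluster 0 of the LPS library. After thinning to 3000 UMIs, a depth at which a cell without a UMI may still express the gene, *Selp* was found in 6.16% of LPS cells of cluster 4 (1.71% in cluster 0), *Sele* in 5.15% (0.299%) and *Madcam1* in 5.15% (0.157%). *Icam1* was found in 34.8% (33.6%), a share close to that of cluster 0, and *Vcam1* in 9.05% (24.05%), a lower one. Of the others in the list, *Icam2*, *Podxl*, *Cd34* and *Alcam* stood at 0.787, 0.773, 0.898 and 0.962 of the control level, and *Cd99* and *Cd47* at 1.19 and 1.85 times it. *Jam2*, a junctional adhesion molecule, was lower at 0.362 of control, from 61.9 to 22.4 CPM (2.77-fold lower, 2.37 to 3.24).

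Of 16 interferon-response genes tested, 12 were at least 2-fold higher and none lower, with a median log2 ratio of 1.78. *Gbp2*, a guanylate binding protein, went from 26.9 to 311 CPM (11.6-fold, 10.3 to 13.1). *Gbp5* was 12.6-fold higher (10.4 to 15.3). *Isg15*, a ubiquitin-like modifier, went from 60.5 to 461 CPM (7.63-fold, 7.03 to 8.28). Guanylate binding proteins form a family of similar genes, and how the counting divided reads among them is not known.

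All 16 were above the level of cluster 0 in the LPS library and 15 above that of cluster 5, and the same numbers held in the control library. Against the macrophages of cluster 6, 12 of the 16 were higher in cluster 4 in the LPS library and 11 in the control library. *Rsad2*, or viperin, went from 38.6 to 101 CPM in cluster 4, against 6.86 in cluster 0 and 44.4 in cluster 5 after LPS. *Gbp2* was found in 52.0% of thinned LPS cells of cluster 4 and 10.9% of those of cluster 0. The 4 genes under 2-fold were *Ifit2*, *Irf7*, *Irf9* and *Stat2*, at 1.82-fold to 1.89-fold.

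**Figure D4:**
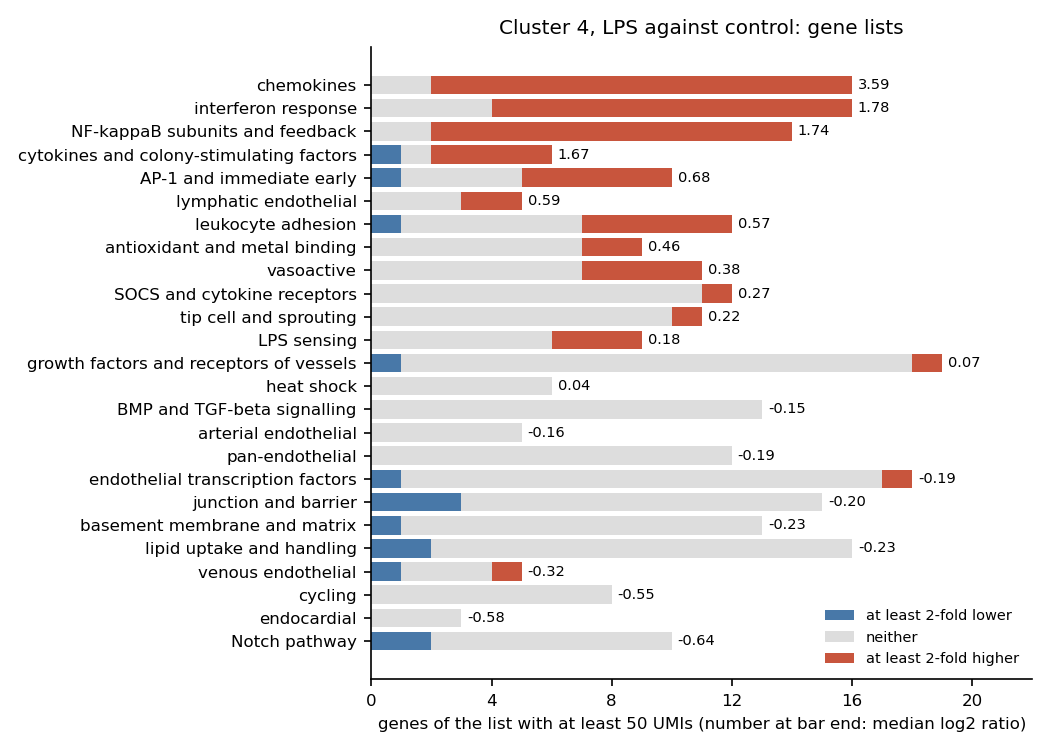
Number of genes tested in each list (horizontal axis) that were at least 2-fold lower (blue), at least 2-fold higher (red) or neither (grey) in LPS against control cells of cluster 4, with the median log2 ratio printed at the end of each bar. The chemokine bar holds 14 of 16 higher genes and the Notch bar 2 of 10 lower genes. The 5 markers, lists of markers of non-endothelial cells and the coagulation list are left out.

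Cytokines were few in number. *Csf3*, the granulocyte colony-stimulating factor, was counted 6 times in the control and 495 times in the LPS library (94.3-fold, 43.0 to 258), and its LPS level of 50.8 CPM stood beside 35.1 in cluster 0 and 2219 in cluster 6. *Csf1*, which sustains macrophages, was 2.88-fold higher (2.50 to 3.31), and *Il6* went from 12 to 38 UMIs (3.62-fold, 1.85 to 7.61). *Il1b* rested on 1 UMI before and 195 after LPS (ratio 223, 39.5 to 8847), and its share of thinned LPS cells was 5.78% in cluster 4 and 7.05% in cluster 0, with 7919 CPM in cluster 6. *Tnf* had 1 and 7 UMIs and was not tested. *Il33*, an alarmin held in endothelial nuclei, was 2.47-fold lower (1.86 to 3.31).

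Among genes of vessel tone, 4 of 11 tested were higher. *Gch1*, the first enzyme of the cofactor that nitric oxide synthases need, was 4.98-fold higher (4.05 to 6.16), and *Ptges*, a prostaglandin E synthase, 5.16-fold (4.32 to 6.2). *Ptgs2*, the inducible cyclooxygenase, was 8.23-fold higher (5.4 to 13.1) and *Nos2*, the inducible nitric oxide synthase, 8.89-fold (4.42 to 20.2), on 70 UMIs in LPS cells. The endothelial synthase *Nos3* stood at 90.4 and 67.3 CPM (0.744 of control).

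Of 10 AP-1 and immediate early genes, 5 were higher, led by *Maff* at 3.97-fold and *Atf3* at 2.96-fold, and *Fos* was 2.31-fold lower. *Sod2*, the mitochondrial superoxide dismutase, went from 1470 to 3629 CPM (2.47-fold, 2.42 to 2.52). Of 12 SOCS and cytokine receptor genes, only *Ifngr1* passed 2-fold, at 2.29-fold (2.17 to 2.42).

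The 5 identity markers of cluster 4 shifted less than the chemokine, NF-κB and interferon-response lists. Their median log2 ratio was -0.50, beside -0.09 over all 9492 genes tested. Of the 5 markers, *Gpihbp1* was 1.67-fold lower after LPS (1.55 to 1.79), *Fabp4* 1.47-fold, *Cldn5* 1.41-fold and *Tcf15* 1.11-fold, while *Apln* was 1.10-fold higher (1.05 to 1.15). None reached 2-fold. Over all genes tested, 2.63% were at least 2-fold higher and 4.02% at least 2-fold lower. *Apln* came to a log2 ratio of -0.01 when cells were thinned. Of 16 lipid genes, 2 were lower and none higher. *Fabp5* was 2.02-fold lower (1.97 to 2.07) and *Meox2* 2.03-fold (1.75 to 2.37), both under 2-fold when scaled by TMM. *Lpl*, lipoprotein lipase, was 1.82-fold higher (1.55 to 2.13) and *Cav1*, the coat protein of caveolae, 1.33-fold.

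In apelin signalling the receptor was lower after LPS, beside the ligand at 1.10-fold. *Aplnr*, the apelin receptor, went from 176 to 51.6 CPM (3.42-fold lower, 3.10 to 3.78), and its share of thinned cells from 32.6% to 11.1%. In cluster 0 *Aplnr* stood at 4.36 CPM in control and 0.908 in LPS cells. It was the only one of 19 vessel growth genes tested to be at least 2-fold lower. *Adm*, adrenomedullin, the only one to be at least 2-fold higher, went from 248 to 499 CPM (2.01-fold, 1.92 to 2.11), while *Ramp2*, a subunit of its receptor, was 1.54-fold lower (1.48 to 1.60). When cells were thinned, *Adm* came just under 2-fold, at a log2 ratio of 0.98.

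Of 10 Notch genes tested, 2 were lower and none higher, and the list's median log2 ratio was -0.64, beside -0.09 over all genes. Both were counted in few UMIs, *Hey2* from 42 to 14 and *Dll1* from 41 to 15. *Notch1* was 1.57-fold lower (1.40 to 1.76), the target *Hes1* 1.54-fold (1.36 to 1.75), and *Dll4* 1.04-fold (0.874 to 1.24). Of 15 junction and barrier genes, 3 were lower: *Jam2*, *Jup* (plakoglobin), at 2.02-fold, and *Ctnnb1* (β-catenin), from 62 to 25 UMIs, a gene with only 629 UMIs over all cells of both libraries. *Cdh5* was at 0.987 of control (0.948 to 1.03), whereas *F11r*, another junctional adhesion molecule, was 1.47-fold higher and *Esam* 1.45-fold. Under TMM *Jup* came under 2-fold, and with thinning so did *Ctnnb1*, at a log2 ratio of -0.53.

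Of 18 endothelial transcription factors tested, *Sox7* was 2.04-fold higher (1.82 to 2.28) and *Meox2* lower. *Erg*, a factor that keeps endothelial identity, stood at 184 and 189 CPM. *Klf2*, the flow-responsive factor, had 36 control and 5 LPS UMIs and was not tested. *Lyve1*, a hyaluronan receptor of lymphatic and some other endothelium, went from 169 to 366 CPM (2.17-fold, 2.05 to 2.29), and came under 2-fold when cells were thinned, at a log2 ratio of 0.98. The lymphatic chemokine *Ccl21* lay in few cells, 88 of its UMIs coming from 5 control cells and 184 from 11 treated ones. None of the 8 cell cycle, 13 BMP and TGF-β, 6 heat shock, 5 arterial, 3 endocardial, 7 mural or 5 cardiomyocyte genes tested passed 2-fold. Of 9 antioxidant and metal binding genes 2 were higher, of 5 venous genes 1 was higher and 1 lower, and of 13 matrix, 8 fibroblast and 2 macrophage genes 1, 2 and 1 were lower. Under TMM the lower venous gene *Nr2f2* and the fibroblast gene *Col1a2* came under 2-fold, at log2 ratios of -0.97 and -0.93, and with thinning so did *Slc7a11*, a higher antioxidant gene, at 0.89. *Hsp90aa1* and *Hspa1a* had 0 UMIs in all cells of both libraries.

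Of the 15 genes with the highest ratios, 9 had a lower LPS level in cluster 4 than in cluster 0, 11 than in cluster 6, and 12 than in at least 1 of the 2. Among the 15 genes with the lowest ratios, most were more abundant in fibroblasts. In 12 of the 15 the control level was lower in cluster 4 than in cluster 0. *Car3*, carbonic anhydrase 3, was at 13.5 CPM before and 0.411 after LPS in cluster 4 (32.8-fold lower, 12.6 to 122), beside 86.3 and 6.48 in cluster 0. *Lrrc17* was at 41.2 and 5.03 CPM in cluster 4 (8.18-fold lower, 6.08 to 11.2), beside 151 and 24.6 in cluster 0. Whether transcripts from fibroblasts or macrophages bear on the values of either set in cluster 4 was not tested. The summed fibroblast markers were lower too, as given above, and without the 10% of cells richest in markers of other cell types the counts were 240 genes higher and 357 lower. The 3 genes of the 15 above their cluster 0 level were *Il16*, a cytokine precursor, at 6.34-fold lower (4.37 to 9.49), *Exoc3l2*, of the exocyst family, at 6.03-fold (3.66 to 10.5), and *Map2k6*, a kinase that activates p38, from 33.3 to 6.47 CPM (5.15-fold, 3.94 to 6.84). They were lower after LPS in cluster 0 too, *Map2k6* from 12.95 to 1.79 CPM, *Il16* from 1.105 to 0.298 and *Exoc3l2* from 0.862 to 0.230. *Exoc3l2* stood at 34.6 CPM in control cells of cluster 5.

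Some called genes had a higher level in cluster 4 than in clusters 0, 1, 2, 3 and 6, a selection made after the values were seen and without cluster 5. In the control library 91 of the 250 higher genes (36.4%) met it, against 34.4% of all genes tested. In the LPS library, whose levels also chose the higher genes, 110 of them met it (44.0%), against 34.6% of all genes tested. They included *Gbp2*, *Isg15*, *Birc3*, *Slamf7* (5.36-fold higher, 4.63 to 6.24), *Ifi47* (8.27-fold, 6.16 to 11.3) and *Gpr84* (8.37-fold, 5.62 to 12.9), and also *Selp* and *Sele*, whose LPS levels were higher in cluster 5, at 656 and 41.3 CPM. Of the 382 lower genes, 104 met it in the control library (27.2%), against 34.4% of all genes tested, and those levels chose them too. Among them were *Aplnr*, *Map2k6* and *Il16*. *Gpr182*, an endothelial scavenger receptor for chemokines, met it as well, from 42.6 to 13.5 CPM (3.17-fold lower, 2.60 to 3.87), but stood at 95.5 CPM in control cells of cluster 5.

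Promoters of the genes that were higher after LPS were searched for short motifs, to set the response beside the sequence. RefSeq promoters of the rat build GRCr8, from 250 bases before to 50 after the start site, were matched by unique symbol for 179 of the 250 higher, 246 of the 382 lower and 6915 of the genes tested. The κB-type motif GGNNTTTCC, where N is any base, was present on either strand in 17.9% of promoters of higher genes, 6.1% of lower genes, 6.71% of genes tested and 6.05% of all 33469 promoters. The looser forms GGNNNTTCC and GGNNNNTCC, which contain the first, were present in 36.3% and 66.5% of higher genes, against 22.4% and 59.1% of genes tested and 18.3% and 46.4% of all promoters. The interferon-type motif GAAANNGAA was present in 17.3%, 5.28%, 7.17% and 9.71% of the same 4 sets, in the order of the first motif.

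Of the other motifs, the AP-1 motif TGANTCA was present in 12.8% of higher genes, 4.64% of genes tested and 7.33% of all promoters. The STAT-type motif TTCNNNGAA was present in 12.3%, 6.51% and 8.87%, and TATAAA in 15.6%, 6.33% and 14.2%. The ETS-type motif GGAAGT was present in 27.4%, 29.4% and 22.6%. In the promoters of lower genes the shares of these 4 motifs, in the same order, were 4.88%, 8.94%, 6.91% and 16.3%. In all, 8 motifs were searched. A match describes letters in a window, and no match was read as a binding site.

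The 120 bases before the start site are shown for 5 higher genes of different roles, chosen because they hold a match, with the matches to GGNNTTTCC or GAAANNGAA on either strand in capitals. *Nfkbia* lies on the minus strand at chr6:78597073-78597192, with matches to the first motif from -31 to -23, counted from the start site, and from -180 to -172, outside the bases shown, and to the second from -55 to -47. *Cxcl1* lies on the minus strand at chr14:17479322-17479441, with matches to the first from -102 to -94 and from -83 to -75. *Madcam1* lies on the minus strand at chr7:10690323-10690442, with matches to the first from -118 to -110 and from -105 to -97.
Nfkbia: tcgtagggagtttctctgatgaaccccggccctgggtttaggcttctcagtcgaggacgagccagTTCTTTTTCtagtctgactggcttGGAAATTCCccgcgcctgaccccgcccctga
Cxcl1: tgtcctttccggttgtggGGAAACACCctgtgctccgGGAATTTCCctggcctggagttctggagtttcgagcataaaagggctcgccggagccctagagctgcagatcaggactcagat
Madcam1: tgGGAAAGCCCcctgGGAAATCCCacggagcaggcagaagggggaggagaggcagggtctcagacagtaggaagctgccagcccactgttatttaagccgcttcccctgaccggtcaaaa

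The guanylate binding protein genes lie on the plus strand of the same chromosome, *Gbp5* at chr2:233910879-233910998 and *Gbp2* at chr2:234005607-234005726. *Gbp5* holds GGNNTTTCC from -94 to -86 and from 33 to 41, the latter after the start site, and GAAANNGAA from -159 to -151 and from -55 to -47. *Gbp2* holds GAAANNGAA from -30 to -22 and no match to GGNNTTTCC.
Gbp5: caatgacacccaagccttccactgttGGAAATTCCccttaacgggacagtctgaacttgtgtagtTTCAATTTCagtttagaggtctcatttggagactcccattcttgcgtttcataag
Gbp2: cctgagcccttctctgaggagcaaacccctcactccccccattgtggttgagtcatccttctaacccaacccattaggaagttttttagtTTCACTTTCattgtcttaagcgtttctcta

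Cluster 5 was put through the same comparison, and its values are set beside those of cluster 4 without a test of the difference. In cluster 5, 328 of 7824 genes were at least 2-fold higher (4.19%) and 345 lower (4.41%). Over the genes tested in both clusters, the median log2 ratio was 4.81 in cluster 5 and 3.83 in cluster 4 for chemokines, 2.59 and 1.75 for NF-κB genes, and 2.46 and 1.66 for interferon-response genes. It was 0.29 in cluster 5 and 0.89 in cluster 4 for leukocyte adhesion genes, 3.91 and 3.98 for cytokines, and 0.15 and 0.18 for LPS-sensing genes. The cytokine medians rest on 4 genes, and over the 6 tested in cluster 4 the median there was 1.67. The leukocyte adhesion medians rest on 9 genes, and over the 12 tested in cluster 4 the median there was 0.57. The chemokine levels in the control library were higher in cluster 4 for 14 of the 16 genes, and in the LPS library they were lower in cluster 4 for 10.

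Among single genes, *Ccl2* was 7.66-fold higher in cluster 4 and 18.1-fold in cluster 5 (17.2 to 19.1), from 894 and 354 CPM in control to 6854 and 6401 after LPS. *Sele* was 6.80-fold higher in cluster 4 and 25.1-fold in cluster 5 (11.9 to 63.2). *Gbp2* went the other way, 11.6-fold higher in cluster 4 and 7.15-fold in cluster 5 (5.30 to 9.83). Several lower genes had a ratio nearer to 1 in cluster 4. *Jam2* stood at 0.362 of control in cluster 4 and 0.106 in cluster 5 (0.0732 to 0.150) and *Gja4* at 0.849 and 0.155 (0.138 to 0.173). *Aplnr* stood at 0.293 and 0.222, with overlapping intervals.

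**Figure D5:**
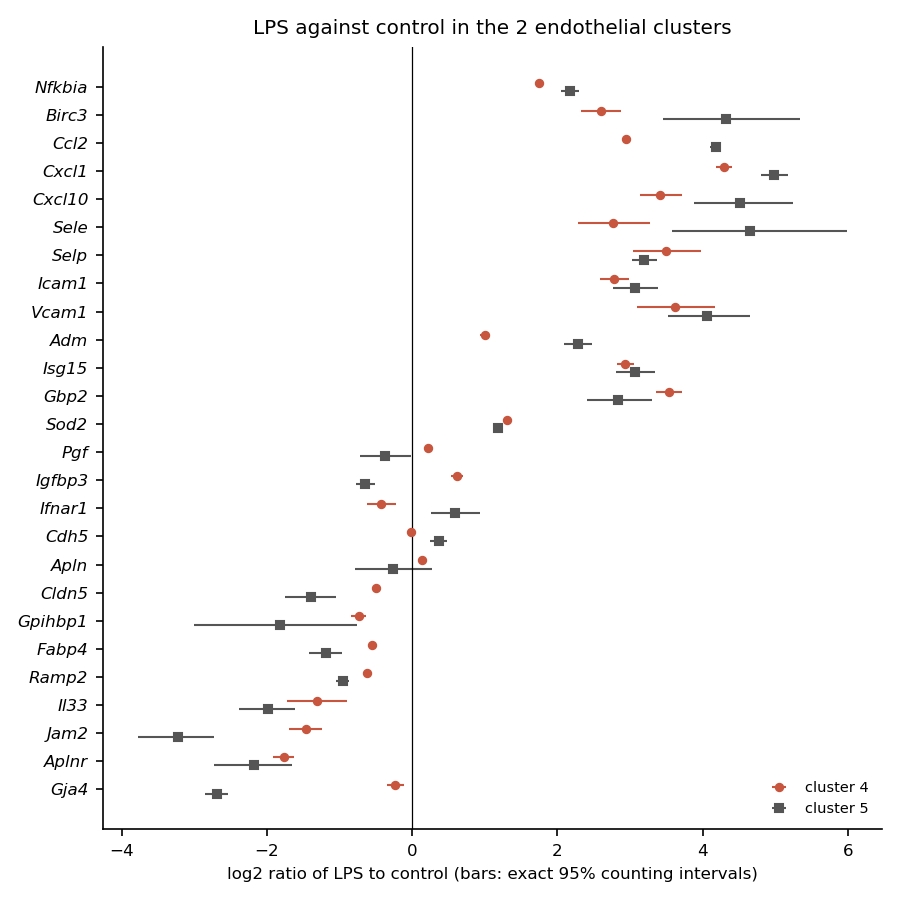
Log2 ratio of LPS to control (horizontal axis) of genes named in the report, in cluster 4 (red circles) and cluster 5 (grey squares), 1 library per condition, with exact 95% counting intervals. *Ccl2*, *Cxcl1* and *Adm* lie further right in cluster 5, *Cldn5*, *Jam2* and *Gja4* further left, and *Pgf*, *Igfbp3* and *Ifnar1* lie on opposite sides of 0 in the 2 clusters.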

How the data were processed

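The authors deposited, per library, a matrix of raw UMI counts per gene and cell barcode from a 10X Genomics Chromium 3′ (v2) kit and a table with a cluster number and annotation per cell. The submitters' processing notes name Cell Ranger 2.2.0 and Seurat 2.3.4, and the paper's methods a clustering resolution of 0.5. Genome build and annotation are not given in the sources used here. The list held 25399 genes, 136 symbols being repeated. Of 361 list symbols, 347 matched.

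Counts were summed per cluster and library in Python 3.11.15 (numpy 2.4.6, scipy 1.17.1, pandas 2.3.3). Log2 ratios had 0.5 UMI added. Intervals at 95% were exact conditional (ratios) or Clopper-Pearson (shares), and covered counting error only. Apart from that addition, counts of 0 were left as they were. No doublet caller was run. TMM factors came from edgeR 4.0.16. The motif letters were shortened after longer forms had been searched. On simulated counts for this comparison (9492 genes, 200 changed 4-fold), 99.5% of the changed genes were called, with 7 unchanged genes called. The simulated counts held counting error only, with no spread between animals, cells or libraries. The 4-fold changes lay well past the 2-fold mark. The result thus checks the calculation and gives no rate of false calls for these data.

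Named were the members of 34 lists, the 15 highest and 15 lowest ratios (at least 50 UMIs, a UMI in 10% of cells) and, for cluster 4 against 5, 10 genes each way (25% of cells of the higher cluster). The members and lists, and the motifs, were chosen with earlier results of these data known. Lists of mesothelial, red cell and lymphocyte markers had at most 2 genes tested after LPS and none called. The coagulation list is not reported here.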

Additional observations from a re-analysis of the deposited data

Results flagged for a closer look

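In 7 list genes with at least 50 UMIs in each of clusters 4 and 5, the intervals of the LPS ratio lay on opposite sides of 1 in the 2 clusters. With 1 library per condition, the difference between the clusters was not tested. The same count over all genes was not made, and the LPS ratios of cluster 5 were not rescaled by other methods. *Igfbp3*, a binding protein of insulin-like growth factors, had a log2 ratio of 0.62 in cluster 4 and -0.65 in cluster 5, a difference of 1.27. *Pgf* had 0.22 and -0.37, a difference of 0.59. *Ifnar1*, a subunit of the type I interferon receptor, had -0.42 and 0.59, a difference of -1.02. The mitotic gene *Ube2c* had -0.55 and 0.50, a difference of -1.06. The other three differed by less: *Sox17* by -0.32, *Hspa8* by 0.26 and *Col4a1* by -0.13, and *Col4a1* changed sign in cluster 4 under other scalings.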

How the results depend on the processing

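No paired analysis was possible because saline and LPS were represented by 1 library apiece. Of 2716 values of 302 named genes under 9 alternatives, 14 changed sign in genes whose counting interval excluded 1. Of the rest, 2385 stayed within the counting interval of the value reported and 317 left it. Changes of sign in genes whose interval held 1 were not counted apart. The 14 changes of sign were *Col4a1* at a log2 ratio of 0.0594 and *Anxa2* at 0.0336 under TMM, and 0.0795 and 0.0538 under median ratio scaling. With thinning they were *Apln* (-0.00708), *Cdh11* (0.0794), *Ctnnd1* (0.25), *Heyl* (0.0926), *Tfpi2* (-0.00235), *Ets1* (0.14) and *Col4a1* (0.0235). Without cells holding *Mki67* or *Top2a* they were *Ccna2* (0.0676), *Birc5* (0.11) and *Col4a1* (0.0201). The cause was not tested.

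Counts of genes higher and lower after LPS, 250 and 382 as reported, were 323 and 686 with a minimum of 20 UMIs, 172 and 136 with 200, 530 and 1241 at 1.5-fold, 75 and 39 at 4-fold, and 187 and 172 with thinning, which also left fewer genes tested (6561). Counts higher in cluster 4 and in cluster 5, 340 and 172, were 208 and 86 with 200 UMIs, 807 and 343 at 1.5-fold, 99 and 45 at 4-fold, and 207 and 103 with thinning. Under the other alternatives they stayed within 1.5 times, for instance 242 and 325 without the deepest 8% of cells and 248 and 374 without cells of shared barcodes. Shares of cells with a marker UMI were higher at every greater depth tried. *Tlr4*, *Klf2* and *Tnf* had under 50 UMIs, and *Klf2* had 250 over all cells. Whether depth or the counting set this was not tested, and the spread between animals could not be estimated.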
